A study of Caenorhabditis elegans with 2 samples.

Results

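The genes described here encode the coats and tethers of the secretory pathway in Caenorhabditis elegans, with the translocation pore and SNARE genes that carry the same sec prefix. They were chosen by symbol: a protein-coding gene was a member if its Ensembl symbol began with sec, copa, copb, copd, cope, copg, copz, cogc or trpp followed by a hyphen and a number. This gave 43 members of the 19973 protein-coding genes of WBcel235, the assembly also called ce11. By name, 7 belong to the COPII coat, 7 to the COPI coat, 6 to the exocyst, 7 to the COG complex and 10 to TRAPP, and 6 are other sec genes.

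The data are binding sites of LIN-15B, a synMuv B protein known for repressing germline genes in somatic cells, mapped by chromatin immunoprecipitation and sequencing. Both biological replicates came from whole L3 larvae of mixed sex, of strain OP184, which carries the mutation unc-119(tm4063) on chromosome III and the transgene wgIs184. Immunoprecipitation was against LIN-15B tagged with eGFP, per the labels, and there was no second genotype, stage or treatment. The promoter driving the transgene is not given in the sources used here, and a whole animal averages over all its tissues. A gene is called bound below if a summit of the list thresholded by the irreproducible discovery rate (IDR) lay in its promoter window, 500 bp upstream to 200 bp downstream of an annotated 5' end. The IDR list held 3331 peaks and the pooled list 30000, with 24760 entries in the list of replicate 1 and 27552 in that of replicate 2. Read counts are not in these lists, so the depth is unknown.

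Secreted and membrane proteins enter the endoplasmic reticulum through the Sec61 pore, leave it in COPII vesicles and are sorted in the Golgi, while COPI vesicles carry cargo and escaped residents back. Tethering complexes catch the vesicles before fusion: TRAPP at the early Golgi, COG within the Golgi and the exocyst at the plasma membrane. SNARE proteins then drive the fusion itself. These roles were worked out largely in yeast and mammals, and the clauses on single genes below give the role of the homologues unless the worm is named.

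The sequences below are windows that reach 50 bp to either side of the IDR summits of 9 members. The first 3 belong to the members with the highest signals, the next 4 hold the 6-mer GTCTCG described later, and the last 2 belong to members whose replicates differed most. Each is read from the RefSeq WBcel235 genome in the direction of the member gene, and capitals mark matches to any of the searched motifs.
sec-61.G, chrV:10897320-10897420, minus strand: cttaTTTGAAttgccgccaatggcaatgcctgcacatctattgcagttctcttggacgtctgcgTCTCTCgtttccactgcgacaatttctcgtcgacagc
sec-61.B, chrIV:2389088-2389188, minus strand: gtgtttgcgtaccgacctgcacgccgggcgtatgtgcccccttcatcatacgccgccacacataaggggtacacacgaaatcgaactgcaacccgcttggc
copz-1, chrII:10872687-10872787, plus strand: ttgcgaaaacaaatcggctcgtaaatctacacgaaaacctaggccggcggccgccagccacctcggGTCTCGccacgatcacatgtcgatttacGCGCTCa
cogc-2, chrIV:7039597-7039697, minus strand: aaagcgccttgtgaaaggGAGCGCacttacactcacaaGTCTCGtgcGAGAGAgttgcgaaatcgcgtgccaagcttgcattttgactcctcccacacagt
sec-16A.2, chrX:8286887-8286987, plus strand: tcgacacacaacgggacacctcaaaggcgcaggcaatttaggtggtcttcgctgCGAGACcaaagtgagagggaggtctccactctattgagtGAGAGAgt
sec-24.1, chrIV:11566301-11566401, minus strand: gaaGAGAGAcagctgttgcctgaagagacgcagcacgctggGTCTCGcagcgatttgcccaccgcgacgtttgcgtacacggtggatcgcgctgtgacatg
copb-2, chrIV:9459376-9459476, plus strand: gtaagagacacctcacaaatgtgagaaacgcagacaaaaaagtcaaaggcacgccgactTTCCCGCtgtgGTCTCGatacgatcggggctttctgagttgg
sec-23, chrV:20090864-20090964, plus strand: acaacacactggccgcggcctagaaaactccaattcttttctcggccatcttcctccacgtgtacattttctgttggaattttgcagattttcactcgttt
cope-1, chrIII:13426175-13426275, plus strand: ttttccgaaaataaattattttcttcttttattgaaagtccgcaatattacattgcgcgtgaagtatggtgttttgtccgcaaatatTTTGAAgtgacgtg

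Of the members, 22 of 43 were bound (51.2%, exact 95% interval 35.5 to 66.7), where 13.4% of all protein-coding genes were. Among the 10896 genes with a letters-and-number symbol, which all members have by the rule, 17.3% were bound. Bound members were found in all 6 groups, at 5 of 7 in COPII, 5 of 7 in COPI, 4 of 7 in COG, 3 of 6 in the exocyst and 4 of 6 among the other sec genes. In TRAPP 1 of 10 was bound (10%, 0.253 to 44.5), against 21 of the 33 members outside TRAPP. The intervals of the groups overlap and cover counting error only. No test of a list or of a difference between groups was run, since the members were chosen with earlier results of these data known and there was only 1 condition.

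**Figure D1:**
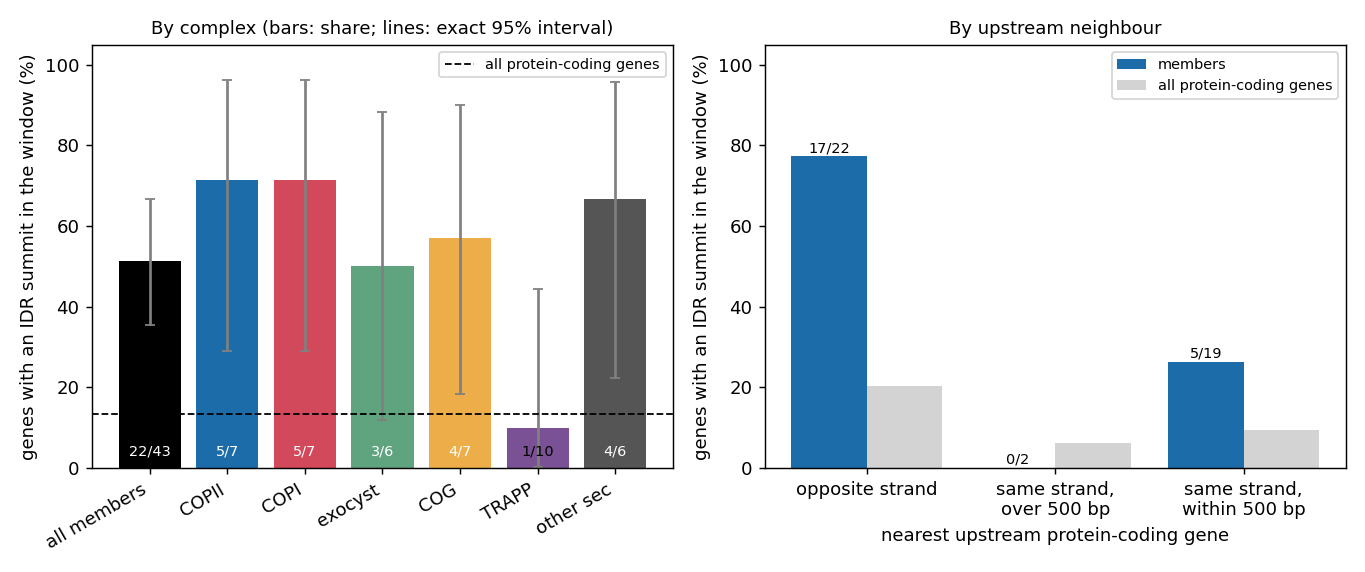
Share of genes with an IDR summit in the promoter window (y axis, percent), by complex on the left with exact 95% intervals and by the strand of the nearest upstream gene on the right beside all protein-coding genes. TRAPP, at 1 of 10 with an interval of 0.253 to 44.5, lies close to the dashed line for all genes at 13.4%. Members with an upstream neighbour on the opposite strand stand at 17 of 22.

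The translocation pore genes sec-61.G and sec-61.B had the highest signals of the members. The signal is the authors' own value per peak, on a scale that is not given, and it is used here only within a list. All 3 Sec61 subunits were bound. The gamma subunit gene sec-61.G (WBGene00001303, known in the worm also as emo-1) had a signal of 563.9 in the pooled data, 261.1 in replicate 1 and 303.2 in replicate 2. It ranked 33 of the 3331 IDR peaks, 37 in replicate 1 and 35 in replicate 2, near the top of each list. Its peak, V:10897209 to 10897513, was intergenic with the summit 227 bp upstream of the 5' end, and no other protein-coding gene's window held it.

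The beta subunit gene sec-61.B (WBGene00021427) had 291.0 in the pooled data, 148.6 in replicate 1 and 141.0 in replicate 2, at rank 161. Its summit lay 463 bp upstream, close to the edge of the window, and inside an exon of the non-coding RNA gene Y38F2AR.17. The same summit lay 307 bp upstream of trap-3, on the opposite strand, which encodes a subunit of the translocon-associated protein complex. The peak thus stood between a pair of translocation genes, whose shares in it cannot be told apart. The pore-forming alpha subunit gene sec-61.A (WBGene00013311) was lower, at 85.9 pooled, 54.7 in replicate 1 and 32.0 in replicate 2, with the summit 91 bp downstream of the 5' end in its 5' UTR.

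Of the remaining sec genes outside the coats and the exocyst, the SNARE gene sec-22 was bound, with 61.2 pooled, 26.3 in replicate 1 and 34.4 in replicate 2. That summit lay 264 bp upstream of sec-22 but 2 bp inside its divergent neighbour stau-1, in the 5' UTR of the latter, which encodes a Staufen family RNA-binding protein. The signal peptidase gene sec-11 and the SNARE gene sec-20 were not bound. For sec-11 the window held entries of 9.0 pooled, 4.2 in replicate 1 and 3.5 in replicate 2. The lowest signal of the IDR list was 22.7, a pooled value that does not apply to the replicate lists. For sec-20 no list held an entry in the window.

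In the COPII coat, genes of every layer were bound. Sec12 starts assembly by activating the GTPase Sar1, and its gene sec-12 had 77.3 pooled, 42.3 in replicate 1 and 37.2 in replicate 2. The inner coat gene sec-24.1, a cargo adaptor, had 107.7, 43.9 and 61.7 in the same order, and the outer cage gene sec-31 had 48.0, 18.5 and 29.7. The sec-24.1 summit lay 157 bp upstream, in exons of the non-coding RNA genes F12F6.13 and F12F6.14. The other inner coat gene, sec-23, which encodes the GTPase-activating subunit, was among the weakest bound members at 34.4.

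Paralogous genes of the COPII coat stood apart from one another. Sec16 is the scaffold of endoplasmic reticulum exit sites. sec-16A.2 (WBGene00017419) had 164.4 pooled, 89.0 in replicate 1 and 77.5 in replicate 2, with its peak at X:8286820 to 8287040 and the summit 312 bp upstream. Its paralogue sec-16A.1 was not bound, with 12.9, 5.5 and 10.3, and the nearest IDR summit lay 36211 bp from its 5' end. In both replicates the signal at sec-16A.2 was therefore the higher, and the values did not overlap. The second Sec24 gene, sec-24.2, was likewise not bound, with 9.3 pooled, no entry in replicate 1 and 8.1 in replicate 2.

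In the COPI coat, the zeta subunit gene copz-1 (WBGene00010333) had the highest signal, with 232.0 pooled, 104.1 in replicate 1 and 128.8 in replicate 2. Its summit lay 142 bp upstream, and 126 bp upstream of the divergent cyn-4, which encodes a cyclophilin. The beta-prime gene copb-2 followed with 95.9, 49.9 and 46.5, the alpha gene copa-1 with 57.4, 28.3 and 29.4, and the gamma gene copg-1 with 45.3, 15.6 and 34.8. The epsilon gene cope-1 was the weakest, at 34.2 pooled.

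The beta gene copb-1 and the delta gene copd-1 were not bound. For copb-1 the window held an entry of 4.1 in the pooled list and of 4.1 in replicate 2, and none in replicate 1. For copd-1 no list held a summit in the window, but an IDR summit of rank 543 lay 519 bp upstream of its 5' end, just past the edge. The peak itself reached into the window. Counted by peak intervals, or with a window of 1000 bp upstream, copd-1 was bound and COPI had 6 of 7 (all genes 14.4% and 16.2%). Of the 21 unbound members, copd-1 was the 1 with an IDR summit within 1000 bp. The median distance for these 21 was 3442 bp. Neither value was counted over all unbound genes, and a gene with a summit in its window is not among them.

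Of the exocyst, which tethers secretory vesicles to the plasma membrane, sec-15, sec-3 and sec-5 were bound. sec-15 had 101.04 pooled, 47.5 in replicate 1 and 54.3 in replicate 2. sec-3 had 66.5, 31.7 and 33.8, and sec-5 had 61.4, 28.1 and 33.8. The signals were somewhat higher in replicate 2 at all 3 genes, as they were at 15 of the 22 bound members. The log2 ratios were 0.19 at sec-15, 0.09 at sec-3 and 0.27 at sec-5. IDR peaks in general were higher in replicate 2 too, with a median log2 ratio of 0.26. The summits at sec-15 and sec-5 were nearer to their divergent neighbours C28G1.2 and pir-1, at 50 and 58 bp, than to the members, at 251 and 128 bp. Not bound were sec-6, sec-8 and sec-10. sec-8 came closest, with 18.7 pooled, 11.7 in replicate 1 and 9.3 in replicate 2, at rank 3885 of the pooled list, and for the others no list held an entry in the window.

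Of the COG complex, cogc-2 (WBGene00000585) had the highest signal at 181.9 pooled, 81.6 in replicate 1 and 100.9 in replicate 2, with the summit 67 bp upstream (peak IV:7039536 to 7039761). cogc-3 had 59.8 pooled and 29.3 in replicate 1, with a nearly equal value in replicate 2. cogc-8 had 43.1, 20.3 and 23.01 in the order pooled, replicate 1 and replicate 2, and cogc-6 had 32.5, 6.4 and 23.4. The COG summits sat near or inside the transcribed region. Those of cogc-6 and cogc-8 were in their own 5' UTRs, 2 and 41 bp downstream of the 5' end. That of cogc-3 was in an intron, 131 bp past an internal annotated 5' end, and with only the most upstream 5' end of each gene cogc-3 was not bound. The cogc-6 summit also lay 174 bp upstream of the divergent air-1, which encodes the Aurora A kinase, and the cogc-8 summit 185 bp upstream of the divergent fnta-1. cogc-1, cogc-4 and cogc-5 were not bound, with pooled entries between 3.7 and 6.2.

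TRAPP was the complex with the fewest bound members. trpp-10, whose homologue is specific to the TRAPPII form, was the bound one, with 104.8 pooled, 50.8 in replicate 1 and 52.9 in replicate 2. Its summit lay 33 bp upstream and 218 bp upstream of the divergent gene Y71G12A.4. Not bound were the genes for shared core subunits, trpp-1, trpp-3, trpp-4, trpp-5 and trpp-6, and those for the larger specific subunits, trpp-8, trpp-9, trpp-11 and trpp-12. Among these the highest entry was that of trpp-9 with 18.3 pooled, 6.7 in replicate 1 and 10.6 in replicate 2, at pooled rank 3945, followed in the pooled list by trpp-6 with 8.4, 6.8 and 3.0. trpp-3, trpp-8 and trpp-11 had no entry of any list in the window, although trpp-8 held 1 IDR summit in its gene body outside the window. trpp-1, trpp-4, trpp-5 and trpp-12 had entries between 2.3 and 4.3 in replicate lists alone.

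**Figure D2:**
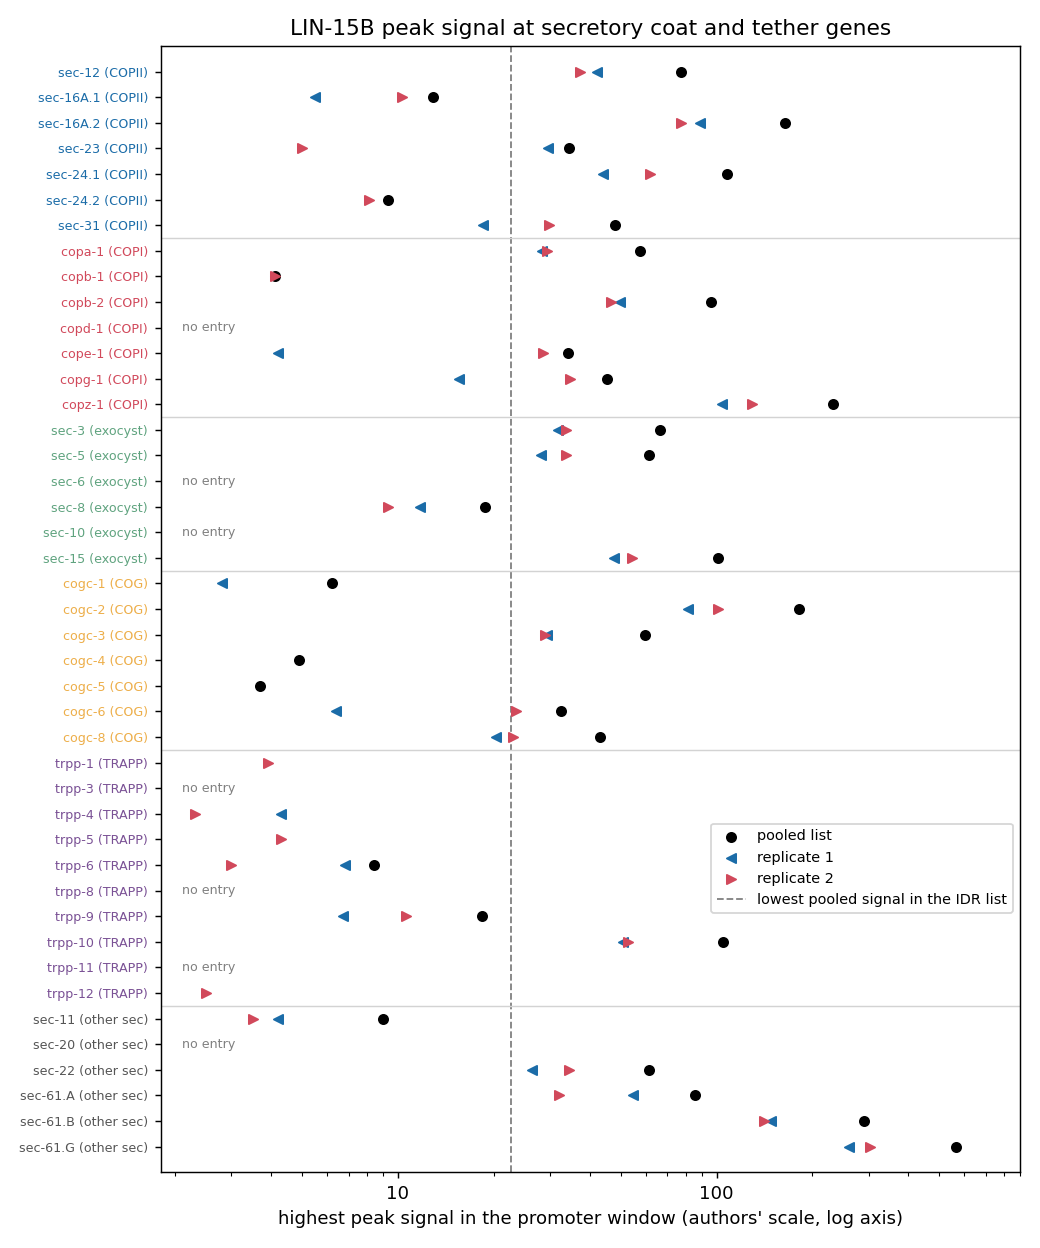
Highest peak signal in the promoter window of each of the 43 members (x axis, authors' scale, log axis) in the pooled list and in each replicate, grouped by complex. The pooled values of the 22 bound members lie right of the dashed line at 22.7, from 32.5 at cogc-6 to 563.9 at sec-61.G, and 7 members have no entry of any list in the window.

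Entries of the longer lists, which were deposited as peaks and background, were also counted in the windows. The pooled list had an entry at 32 of 43 members, where 36.8% of all genes had one, the list of replicate 1 at 29 (32.5% of all genes) and that of replicate 2 at 33 (35.0%). Of the 21 unbound members, 10 had a pooled entry, with signals from 3.7 to 18.7, and 11 had none. Such entries cannot exceed 22.7, the lowest signal of the IDR list, since that list is the top of the pooled one. Of all 19973 genes, 7343 had a pooled entry and 2683 were bound. Every bound gene is among the 7343, since each IDR peak is also a pooled entry. The share among all unbound genes was not counted separately. The bound members had a median signal of 71.9 and all bound genes one of 70.5.

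At most members the replicates gave like values. Across the 3322 IDR peaks with an overlapping entry in both replicates, the log2 ratio of replicate 2 over replicate 1 had a median of 0.26 and an SD of 0.59. For 17 of the 22 bound members the ratio was within 1 SD of that median, a share not counted over all IDR peaks. Outside it lay copg-1 (log2 ratio 1.15), sec-61.A (-0.77) and the 3 members named next. Of the 22, 19 were among the 3331 highest entries of both replicates, as were 81.7% of all IDR peaks. The other 3 were cope-1, sec-23 and cogc-6, and all 3 were among the weakest bound members.

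At cope-1 the entries overlapping the IDR peak had 5.1 in replicate 1 and 28.6 in replicate 2, a log2 ratio of 2.50, and 0.331% of the IDR peaks were as far from the median. At sec-23 the order was turned, with 29.6 in replicate 1 and 5.7 in replicate 2, a log2 ratio of -2.37 that 0.12% of peaks matched. At cogc-6 the values were 6.4 and 23.4, with a log2 ratio of 1.88 (1.84% of peaks). At each of the 3, 1 replicate thus held most of the signal. With the 3331 highest entries of replicate 2 alone, sec-23 was not bound. With those of replicate 1 alone, cope-1 and cogc-6 were not bound and sec-8 was.

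**Figure D3:**
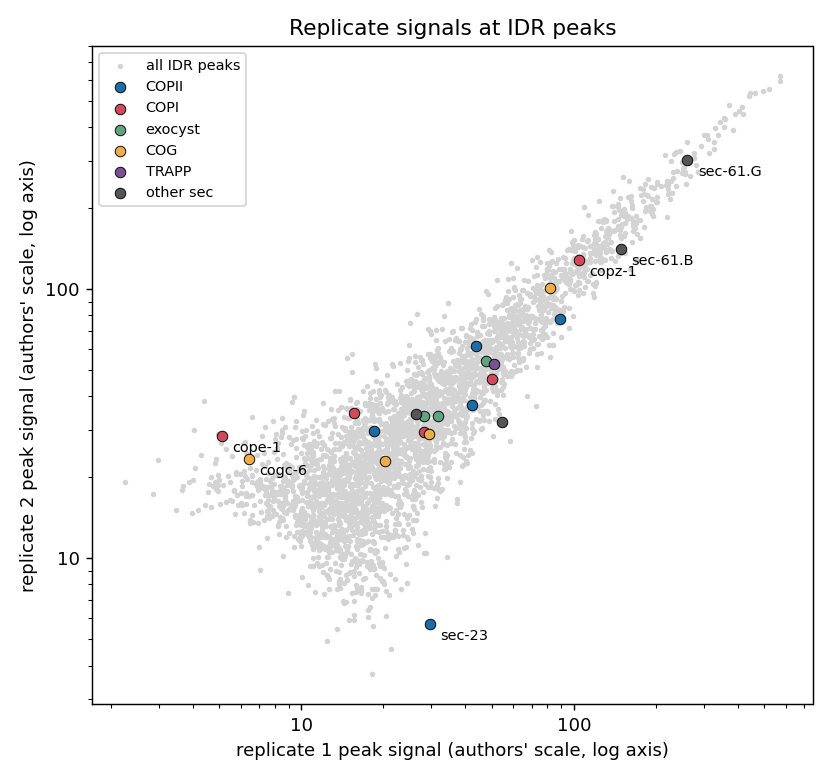
Signal of the overlapping entry in replicate 1 (x axis) and replicate 2 (y axis) at each IDR peak, both on the authors' scale with log axes; grey points are all IDR peaks and coloured points the bound members by complex. Most members lie along the cloud, while cope-1 and cogc-6 lie to its upper left and sec-23 far below it.

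Summits stood mostly upstream of the bound members, at a median of -151 bp from the nearest 5' end, with a range from -463 bp at sec-61.B to 131 bp at cogc-3. All bound genes had a median of -176 bp. The summit was upstream in 18 of 22 members (81.8%), where 94.5% of all bound genes had it upstream, and the 4 exceptions were cogc-3, cogc-6, cogc-8 and sec-61.A. Each bound member had 1 IDR summit in its window. Of the 22 peaks, 11 had the fixed width of 310 bp that 64.6% of IDR peaks share, so their summits are the middles of intervals.

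**Figure D4:**
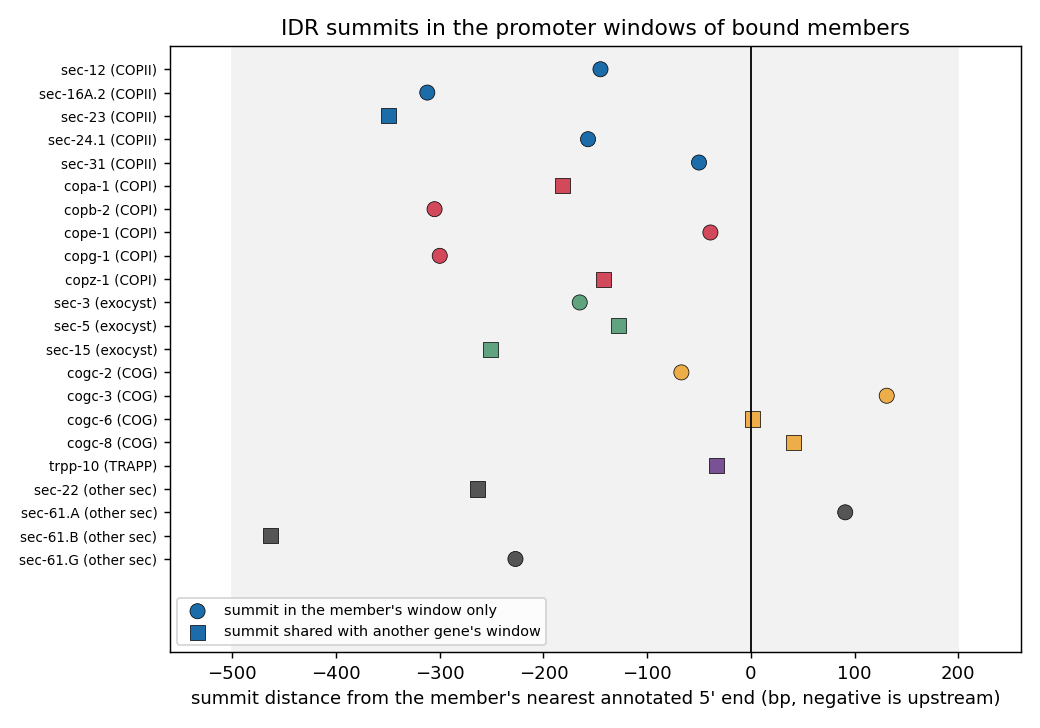
Position of the IDR summit of each of the 22 bound members relative to its nearest annotated 5' end (x axis, bp, negative upstream; the shaded band is the promoter window), with squares for the 10 summits that also lie in another gene's window. COG summits lie between -67 and 131 bp, nearer to the 5' end than most others.

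The arrangement of the neighbouring genes went with the calls. Where the nearest upstream protein-coding gene was on the opposite strand, 17 of 22 members were bound (77.3%), where 20.4% of all such genes were. Where it was on the same strand and within 500 bp, as in the gene clusters that worms often transcribe as operons, 5 of 19 were bound (26.3%, all genes 9.51%), and where it was on the same strand and farther, 0 of 2 (all genes 6.22%). The 5 were sec-12, sec-16A.2, cope-1, sec-3 and cogc-3. Of the 10 TRAPP genes, 7 had a same-strand neighbour within 500 bp and 3 one on the opposite strand. The bound trpp-10 was among the 3, and the 7 were all unbound. Outside TRAPP the counts were 12 and 19, with 5 and 16 bound. The numbers are small, and the part of the arrangement in the TRAPP count was not tested.

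Several unbound members lay downstream of a gene that was itself bound. For each gene the run of same-strand genes no more than 500 bp apart was followed upstream to its first gene, a rule added after the calls were seen, and the annotation used does not mark operons. Of the 14 unbound members in such runs, 7 had a bound first gene (50%, all genes 29.7%). trpp-3 lies in a run headed by prp-40, a splicing factor gene with a peak of 391.6 (179.7 in replicate 1 and 212.6 in replicate 2). sec-11 follows rpb-7, an RNA polymerase II subunit gene, with 195.1, and sec-6 follows bmy-1 with 171.6. These 3 peaks also lay in the windows of clu-1 (at prp-40), Y54E10BR.2 (at rpb-7) and F09E5.11 (at bmy-1). The others were trpp-1 after arid-1 (45.6), trpp-8 after xrep-4 (25.3) and sec-20 in a run headed by ubc-20 (27.7).

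The last was cogc-5, which follows tufm-2, and the peak there (106.8; 46.9 in replicate 1 and 59.7 in replicate 2) also lay 29 bp upstream of the divergent exoc-7, an exocyst gene outside the symbol rule. These peaks at first genes lay from 1163 bp (sec-6) to 15719 bp (trpp-1) from the member's own 5' end. The bound members in such runs, sec-12, sec-16A.2, cope-1, sec-3 and cogc-3, all had an unbound first gene. The share over all bound genes in such runs was not counted, so no pattern is read from this. A member was then counted as bound if its own window or that of the first gene held a summit. By this count 29 of 43 were bound, where 19.0% of all genes were. TRAPP then had 4 of 10. Not reached by this count were trpp-9, trpp-11, trpp-12 and trpp-4 in such runs, and trpp-5 and trpp-6, whose upstream neighbours are on the opposite strand.

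Of the 22 bound members, 10 (45.5%) had a peak that also lay in another gene's window, as did 46.2% of all bound genes. The other gene was nearer to the summit in 6 of the 10: dcs-1 at sec-23, cyn-4, pir-1, C28G1.2, stau-1 and trap-3. At any shared peak some gene is the nearer, and the share over all shared peaks was not counted. Counting members with an unshared peak alone, 12 of 43 were bound (27.9%), where 7.27% of all genes were. In the other 4, copa-1, cogc-6, cogc-8 and trpp-10, the member was the nearer, as at copa-1 with 182 bp against 283 bp for gst-43.

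By chromosome, bound members were 8 of 10 on IV, 4 of 6 on X, 3 of 6 on V, 4 of 9 on I, 2 of 6 on II and 1 of 6 on III. Of all genes, 13.8% were bound on IV, 7.36% on X, 8.29% on V, 21% on I, 12.5% on II and 21.9% on III. On X the 4 bound members were sec-16A.2, sec-15, sec-3 and sec-22, while trpp-9 and trpp-12 were not bound. Chromosome III held the 1 bound member cope-1 beside copd-1, sec-16A.1, sec-20, trpp-3 and trpp-11, which were not.

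The windows printed above were searched on both strands, as were those of the other bound members. The GC content within 50 bp of the summit was 48.5% ± 8.0 (SD over 22 windows), where all IDR summits had 47.0% ± 7.3. The repeat GAGAGA was in 4 of 22 member windows (18.2%), in 26.9% of the windows of all IDR peaks and in 8.42% of windows of the same length centred 150 bp upstream of the outermost 5' end of all 19973 genes. The CHR element TTTGAA was in 4 of 22, in 18.9% of the IDR windows and in 29.6% of the promoters. GCGCGC was in 1 of 22, at trpp-10, in 10.1% of the IDR windows and in 1.43% of the promoters. The E2F core, read as GCGGGAA and as GCGCGAA, was in 1 of 22, at copb-2. It was in 7.11% of the IDR windows and 1.95% of the promoters. Of the 2098 IDR peaks with a summit in a gene's promoter window, 20.7% held GAGAGA and 22.4% the CHR element. GCGCGC was in 12% of these and the E2F core in 7.86%.

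The 6-mers GTCTCG and GAGCGC were picked after the member windows had been read, so their counts are a description of those windows. GTCTCG was in 7 of 22: sec-16A.2, sec-24.1, copb-2, copz-1, cogc-2, cogc-3 and sec-61.A. It was in 12.1% of the windows of all IDR peaks and in 2.98% of the promoters. Among the IDR peaks with a summit in a promoter window the share was 13.2%. GAGCGC was in 5 of 22, at sec-31, copz-1, cogc-2, cogc-6 and sec-22. It was in 17.5% of the IDR windows, in 20.8% of those with a summit in a promoter window and in 1.99% of the promoters. GAGCGC can share letters with GCGCGC, as the E2F core can. A match is no evidence of a bound factor, and no match says only that the letters are not in the window.

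Other genes of the pathway, from a wider list of 70 symbols of which 64 matched a protein-coding gene, were bound in 35 cases (54.7%, 41.7 to 67.2), where 13.4% of all genes were. With unshared peaks alone, counted after these values were seen, 15 were bound (all genes 7.27%), and with a window of 200 bp upstream 17 (all genes 7.59%). COPII partners were bound in 3 of 4: sar-1, the Sar1 GTPase, had 126.1, npp-20, the Sec13 subunit that the outer cage shares with the nuclear pore, had 71.6, and tfg-1, which acts at exit sites, had 63.7. sft-4, a cargo receptor gene, was not bound. The exocyst genes exoc-7 (106.8) and exoc-8 (90.7) and the GTPase gene ral-1 (29.6) were bound, as were golg-5 (119.3), uso-1 (65.0) and vps-51, whose peak of 321.8 also lay in the window of lin-35, the worm Rb gene and itself a synMuv B gene.

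Of the genes listed with translocation, 14 of 17 were bound (82.4%, 56.6 to 96.2), the cargo receptor genes ile-1 and ile-2 included. In 11 of the 14 the peak also lay in another gene's window, which left 3 with an unshared peak, and 9 of the 14 were not bound with the window of 200 bp. trap-1 had 180.5, trap-4 had 102.1 and dad-1 of the oligosaccharyltransferase had 236.9. trap-2 and ile-2 shared a peak of 339.1, which counted for both. The peak of trap-3 was that of sec-61.B, already counted among the members. The intervals for this group and for the whole wider list treat such genes as separate. spcs-3, tram-1 and ostb-1 were not bound. SNAREs and their partners were bound in 8 of 15 (4 with an unshared peak), led by nbet-1 (337.6) and sly-1 (302.2), and the unbound included bet-1, which in the worm encodes a bromodomain protein and is no SNARE. Tether partners were bound in 6 of 13 (2 with an unshared peak). The 7 not bound included vps-52, vps-53 and vps-54 and also glo-3, a gene of gut granule formation that is no tether of the Golgi.

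Of the COPI and Golgi partners, 4 of 15 were bound (26.7%, 7.79 to 55.1), all 4 with an unshared peak: agef-1 (63.2), erd-2.1 (59.5), tmed-3 (76.8) and tmed-10 (115.9). The Rab GTPase genes rab-1, rab-6.1, rab-6.2, rab-8 and rab-11.1 were not bound, nor was gbf-1, an exchange factor that recruits COPI in mammals. With a window of 1000 bp upstream rab-1, rab-8, rab-11.1 and tmed-1 were bound, as were golg-4, ostb-1 and tram-1 of the other groups. The wider list then had 42 of 64 bound (65.6%, all genes 16.2%). RefSeq gives the symbol sec-62 to C18E9.2, a gene that the Ensembl table names by its locus, and it was bound with a signal of 68.6 at rank 1262. With it, 23 of 44 genes were bound.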

How the data were processed

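Binding of LIN-15B was measured by chromatin immunoprecipitation in 2 replicates of 1 group. The labels name builds ce11 and ce10. The authors deposited 1 peak list per replicate, 1 from the pooled alignments and 1 after IDR thresholding, per the deposited text records. No source used here gives the aligner, peak caller, software versions or IDR threshold. Peak heights are signal values as the authors deposited them, in an unstated scale. The deposited −log10 q-value was 3.96 for every IDR peak and was not used to rank. The IDR list was identical to the 3331 highest peaks of the pooled list.

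The ce11 lists were joined to Ensembl release 115 of WBcel235 in Python 3.11.15 (with scipy 1.17.1 for intervals, numpy 2.4.6 for summaries and matplotlib 3.10.9 for plots). Positions are 1-based. Summits are the peak start plus the deposited offset. Intervals are exact Clopper-Pearson 95% intervals and cover counting error only. Neighbours were protein-coding genes, with overlapping genes counted as touching. Replicate entries were matched to IDR peaks by an overlap of at least 1 bp. The windowing was tested on simulated data. The ce10 lists were not used.

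The members, gene lists, motifs and rules were chosen with earlier results of these data known. All members could be named; other genes were named if they shared a peak with a member, headed its run of genes, or stood in the wider list. The wider list named 6 symbols without a match. Alternatives were other windows, a stricter list of 1665 peaks, peak intervals, the list of each replicate alone, 1 5' end per gene and unshared peaks, with the rule on runs of genes, the RefSeq symbols, unshared peaks in the wider list, the background of genes with a letters-and-number symbol and the 2 picked 6-mers added after seeing the data.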

Additional observations from a re-analysis of the deposited data

How the results depend on the processing

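No count for a group fell to 0 except that of TRAPP with unshared peaks. With a window of 200 bp upstream 14 members were bound (32.6%, all genes 7.59%), 3 in COPII, 3 in COPI and 1 among the other sec genes, and 17 of the wider list; the lost members were those with summits over 200 bp upstream, copb-2, copg-1, sec-15, sec-16A.2, sec-22, sec-23, sec-61.B and sec-61.G. In the stricter list 16 members were bound (all genes 8.53%), and COPII and COPI had 3 each and COG had 2. With unshared peaks alone 12 members were bound, 3 in COPI, 1 in the exocyst, 2 in COG, 0 in TRAPP and 2 among the other sec genes; in the wider list 15 were, a count added after seeing the data. With the first gene of each run counted, added after seeing the data, TRAPP had 4. The CHR element was within 50 bp of the summit at 18.2% of bound members and within 100 bp at 45.5%, the longer window holding more letters. Of 75 values under alternatives, 58 stayed within 1.5 times the main count or within the interval of the main share. With either replicate left out 21 members were bound. With a window of 1000 bp upstream, or with peak intervals overlapping the window, copd-1 was added and 23 were bound (all genes 16.2% and 14.4%). The unknown depth limits what an absent peak can show. No paired analysis was possible because there was 1 group.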
